A study of Mus musculus with 12 samples.

Results

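Cyclic nucleotide phosphodiesterases hydrolyse cAMP and cGMP and so end the signals that receptors start through adenylyl and guanylyl cyclases. The 10 phosphodiesterase genes described here were chosen by gene symbol as members of the class known from the brain, by a rule that uses no measured value, although earlier results of these data were known when the list was drawn up. They were Pde1a, Pde1b, Pde1c, Pde2a, Pde4a, Pde4b, Pde4d, Pde7b, Pde8b and Pde10a, out of 33024 gene symbols counted. Another 14 genes with phosphodiesterase names, not all of which encode a catalytic enzyme, were listed beside them. All 10 passed the filter on low counts, which left 16059 genes for testing.

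Members of the PDE1 family are switched on by calcium and calmodulin and cleave both cyclic nucleotides. PDE2A is stimulated by cGMP, and PDE10A cleaves both nucleotides and is best known from the medium spiny neurons of the striatum. The PDE4, PDE7 and PDE8 families are specific for cAMP, and PDE4 enzymes are the target of rolipram. In neurons these enzymes set how long and how far a cyclic nucleotide signal reaches protein kinases and channels.

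RNA was sequenced from the cortex of 12 C57BL/6 mice, 7 of the Control group and 5 of the EtOH group. All belonged to Arm 2 of the study, in which mice aged 30 days at the start chose between 2 bottles in the dark. EtOH mice had a bottle of 20% (v/v) ethanol for 12 h a night over 35 days, Control mice drank water, and 14 days without ethanol followed. Behavioural tests, a water maze, Y-maze tests, forced swimming and a rotarod among them, came after those days and before tissue was taken. The study's own texts differ on the length of drinking in weeks, and the sex of the mice is not given in the labels used here. The cortex was dissected after perfusion with saline and was not sorted into cell types. Levels are given as CPM, the counts of a gene scaled to a common library size with TMM factors. A gene was called lower or higher at an adjusted p under 0.05 together with a log2 fold change over 0.5 in size, and log2 fold changes are EtOH minus Control throughout.

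Total counts were 31768079 to 40690226 in Control and 32048725 to 42183031 in EtOH libraries, so that 3 counts correspond to 0.0695 to 0.0962 CPM. Pde2a, the lowest member, had 38 to 116 counts per library, and counting error bears mostly on that gene. The libraries did not all hold the same mix of regional markers. All 13 striatum markers were called lower in EtOH, and their summed level was 873 to 1922 CPM in Control against 193 to 219 CPM in EtOH mice. Of 10 hippocampus markers 9 were called higher, with a summed level of 42.1 to 47.8 CPM in Control against 154 to 206 CPM in EtOH mice, and no marker of either list was at 0 in a whole group. Markers of cortical projection neurons had mean log2 CPM values of 6.74 to 7.13 in Control and 6.56 to 7.05 in EtOH mice, with 1 of 9 lower (Lamp5) and 1 higher (Fezf2). Other lists held 2 of 7 lower for inhibitory neurons, 2 of 5 higher for thalamus and 2 of 3 higher for choroid plexus (Ttr and Kcnj13). They also held 2 of 8 lower for oligodendrocytes, 1 of 6 higher for astrocytes and 1 of 4 lower for endothelial cells. At an adjusted p under 0.05 in edgeR's test, with no fold minimum, 7 oligodendrocyte markers were lower and 0 higher. Their mean log2 CPM was 8.08 in EtOH 2, 7.21 to 7.54 in the other EtOH mice and 7.76 to 8.07 in Control mice. The choroid plexus calls rest on EtOH 1, EtOH 3 and EtOH 4, since the mean log2 CPM of these markers was 3.03, 5.34 and 3.84 there, 0.74 in EtOH 2 and -0.09 in EtOH 5, against 0.18 to 1.94 in Control mice, and limma voom called 0 of them. Of 6 microglia markers 0 were called by edgeR, DESeq2 or limma voom. In edgeR's test 5 were lower at an unadjusted p under 0.05. At an adjusted p under 0.05 4 were lower and 0 higher, all under the fold minimum.

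Of the 10 members, 4 were called lower in EtOH mice and 0 were called higher, beside 4.09% of all genes tested that were called lower, 4.2% that were called higher and 8.29% called in either direction. The 4 were Pde10a, Pde7b, Pde1b and Pde1c, with EtOH means at 24.2%, 34.9%, 38.6% and 53.9% of the Control means. DESeq2 and limma voom also gave 4 lower and 0 higher. At an unadjusted p under 0.05 in edgeR's quasi-likelihood test 6 members were lower and 2 were higher, and the same 6 and 2 had an adjusted p under 0.05. The median log2 fold change of the 10 was -0.31, beside 7.2e-05 over all genes tested. In bulk tissue, fewer cells of a type and less RNA per cell cannot be told apart in any of these differences.

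**Figure D1:**
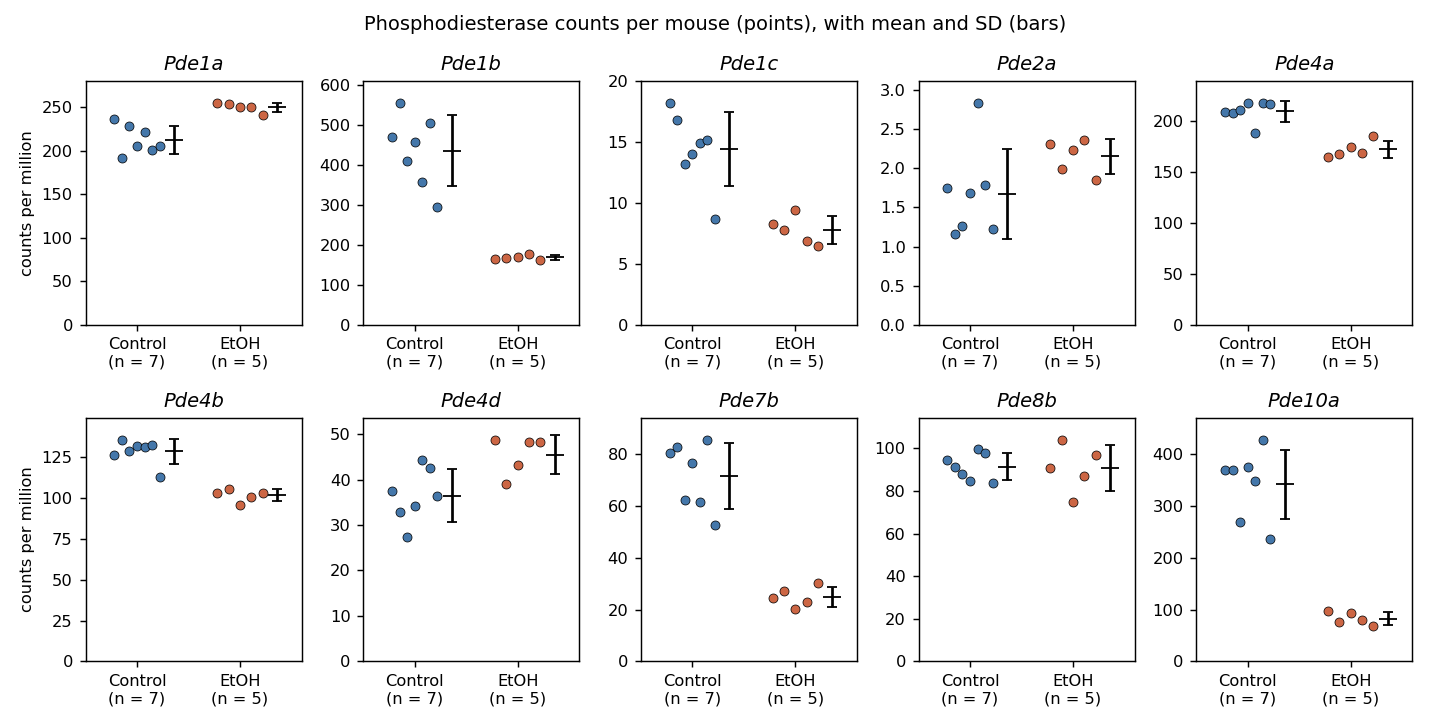
Level of each of the 10 phosphodiesterase genes in CPM (linear axes from 0, 1 panel per gene) in 7 Control and 5 EtOH mice; each point is 1 mouse, and the bar beside the points is the mean with its SD. Pde10a, Pde1b and Pde7b lie lower in every EtOH mouse than in every Control mouse, and the groups of Pde8b overlap.

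Pde10a (chromosome 17, 8744204 to 9205482, plus strand; all positions are on GRCm39), the dual-specificity enzyme of medium spiny neurons, had the largest difference of the 10. The lowest, median and highest Control mice were at 235, 369.6 and 428 CPM, and the EtOH mice were at 96.8, 75.1, 93.5, 80.2 and 68.2 CPM. Every EtOH mouse was far below the lowest Control mouse. Pde10a fell by 2.05 on the log2 scale (SE 0.13, adjusted p = 1.24e-08, edgeR's quasi-likelihood test, Benjamini-Hochberg adjusted), from 342 ± 66.8 CPM (SD, n = 7) to 82.8 ± 12.1 CPM (SD, n = 5).

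Pde7b (chromosome 10, 20273567 to 20600886, minus strand), which encodes a cAMP-specific enzyme of high affinity, had the next largest difference. Control mice had a lowest level of 52.6, a median of 76.7 and a highest of 85.5 CPM, and the 5 EtOH mice were at 24.5, 27.2, 20.4, 22.8 and 30.3 CPM. Again the groups did not overlap. Its log2 fold change was -1.52 (SE 0.12, adjusted p = 1.68e-07 by edgeR's quasi-likelihood test), and no other annotated gene overlaps the exons of Pde7b.

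Pde1b (chromosome 15, 103411286 to 103439706, plus strand), the calcium-activated enzyme known from dopamine-receptive neurons, was the most abundant member in the Control libraries. Those libraries held striatum markers at a summed 873 to 1922 CPM, and in EtOH mice Pde1a was the most abundant instead. Control mice ranged from 295 through a median of 457 to 554 CPM, whereas the EtOH mice stood close together at 165, 166, 169, 178 and 162 CPM. The highest EtOH mouse was well below the lowest Control mouse. The log2 fold change was -1.37 (SE 0.12, adjusted p = 2.92e-07 by edgeR's quasi-likelihood test). Ppp1r1a on the opposite strand overlaps 35.4% of the exon length of Pde1b, and the strand setting of the counting is not given in the sources used here. Ppp1r1a itself had 79.1 ± 12.8 CPM in Control and 67.9 ± 2.13 CPM in EtOH mice, with an adjusted p of 0.0897 in edgeR's quasi-likelihood test.

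Pde1c (chromosome 6, 56046784 to 56629472, minus strand), the least abundant PDE1 gene here, had Control levels from 8.66 through a median of 15.0 to 18.2 CPM. The EtOH mice were at 8.30, 7.78, 9.45, 6.86 and 6.48 CPM. The groups overlapped only in that Control 7 lay below EtOH 3. On the log2 scale the difference was -0.89 (SE 0.15, adjusted p = 0.000315 by edgeR's quasi-likelihood test), the smallest of the 4 calls.

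Control 7 also had the lowest level of all 7 Control mice for Pde10a, Pde7b, Pde1b and Pde4b, and the lowest striatum marker level of that group. The part of the striatum and hippocampus markers in the group differences was not tested. Leaving out any 1 of the 12 mice left the log2 fold change of Pde10a between -2.12 and -1.99, of Pde7b between -1.60 and -1.45, of Pde1b between -1.45 and -1.30 and of Pde1c between -0.98 and -0.83.

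**Figure D2:**
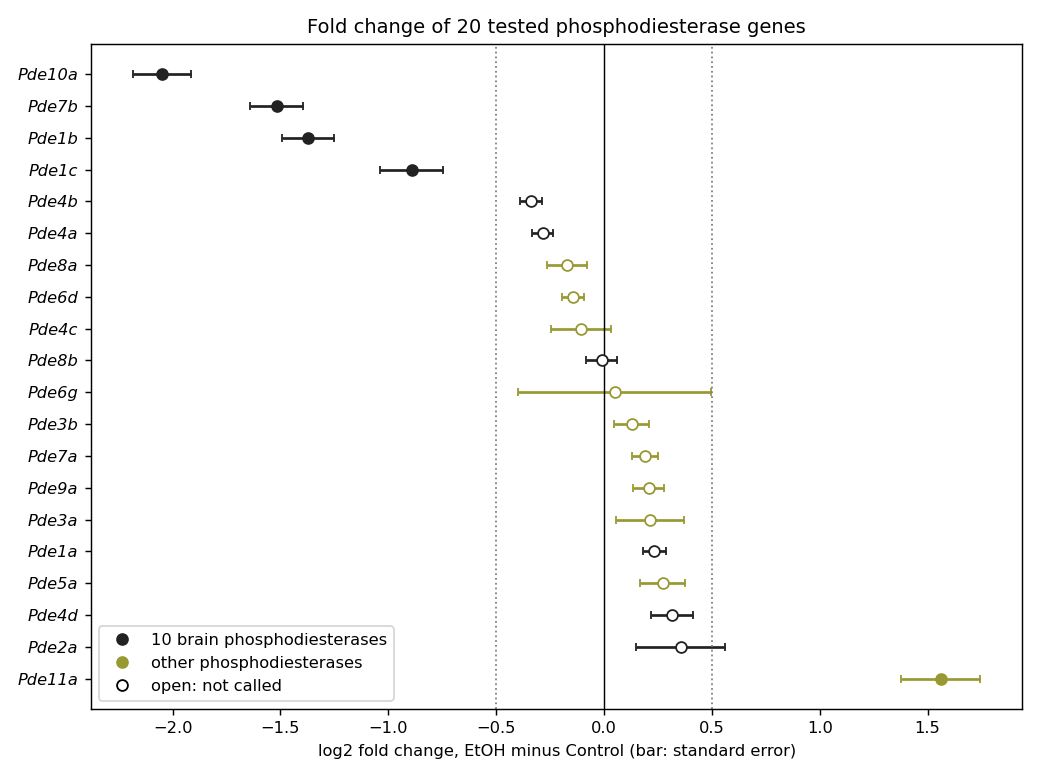
Log2 fold change (EtOH minus Control) of the 20 genes with phosphodiesterase names that were tested, with its standard error as the error bar. Members are dark, the other listed genes olive, open points were not called, and dotted lines mark 0.5 in either direction. Pde10a, Pde7b, Pde1b and Pde1c are the filled points below 0, and Pde11a is the filled point above 0.

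The remaining 6 members were not called, and they divided between small differences and none detected. Pde4a, Pde4b, Pde4d and Pde1a had adjusted p values under 0.05 with log2 fold changes under 0.5 in size. With no fold minimum 6 members would be lower and 2 higher, beside 11.6% and 12.1% of all genes tested and 23.7% in either direction. Pde4a and Pde4b were lower by this rule, and Pde1a and Pde4d were higher.

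Pde4b (chromosome 4, 101944740 to 102465716, plus strand), which encodes a cAMP-specific enzyme widely expressed in brain and immune cells, had Control levels of 113 at the lowest, 131 in the median and 135 CPM at the highest. The EtOH mice were at 103, 105, 95.5, 101 and 103 CPM, all below every Control mouse. On the log2 scale the difference was -0.34 (SE 0.05, adjusted p = 0.000154 by edgeR's quasi-likelihood test).

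Pde4a (chromosome 9, 21073005 to 21124544, plus strand), a second rolipram-sensitive cAMP enzyme, had Control levels of 188, 210.3 and 217 CPM at the lowest, median and highest. The EtOH mice were at 164, 167, 174, 168 and 186 CPM. The highest EtOH mouse and the lowest Control mouse nearly touched. The log2 fold change was -0.29 (SE 0.05, adjusted p = 0.000588 by edgeR's quasi-likelihood test).

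Pde4d (chromosome 13, 108586482 to 110092497, plus strand), the third PDE4 gene of the list, lay the other way. Its Control levels were 27.5, 36.4 and 44.3 CPM at the lowest, median and highest, and the EtOH mice were at 48.7, 38.98, 43.2, 48.2 and 48.2 CPM. EtOH 2 and EtOH 3 lay inside the Control range. The log2 fold change was 0.32 (SE 0.10, adjusted p = 0.0260 by edgeR's quasi-likelihood test), and the adjusted p was under 0.05 in 7 of 12 fits that left out 1 mouse.

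Pde1a (chromosome 2, 79664364 to 79959802, minus strand) encodes a calmodulin-dependent enzyme like Pde1b and Pde1c, yet its difference had the opposite sign. Control mice had 191, 205 and 236 CPM at the lowest, median and highest, and the EtOH mice had 254, 253, 250.4, 250.2 and 241 CPM. Every EtOH mouse was above every Control mouse. This was a log2 fold change of 0.23 (SE 0.05, adjusted p = 0.00507 by edgeR's quasi-likelihood test). Groups thus did not overlap for 5 members with EtOH lower and 1 with EtOH higher, beside 4.96% and 4.84% of all genes tested and 9.81% in either direction.

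Pde8b (chromosome 13, 95160559 to 95386844, minus strand), a cAMP-specific enzyme insensitive to most classical inhibitors, had nearly equal means. Control mice had 83.5, 91.2 and 99.8 CPM at the lowest, median and highest, and the EtOH mice had 90.7, 103.9, 74.8, 87.0 and 96.98 CPM. The EtOH mice lay on both sides of the Control range. Its log2 fold change was -0.01 with an SE of 0.07.

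Pde2a (chromosome 7, 101070825 to 101162038, plus strand), the cGMP-stimulated enzyme, was by far the lowest member. Control mice had 1.16, 1.69 and 2.83 CPM at the lowest, median and highest, and the EtOH mice had 2.32, 1.99, 2.24, 2.37 and 1.85 CPM. All EtOH values lay within the Control range, whose top was Control 5. The log2 fold change was 0.36 (SE 0.21, adjusted p = 0.223 by edgeR's quasi-likelihood test), and without Control 5 it was 0.53 with an adjusted p of 0.0277, past the threshold for higher. Some of its counts were not whole as deposited. Other annotated genes, Gm45837 on the same strand among them, overlap 55.6% of its exon length, so its level is uncertain.

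Levels of different genes were compared per length as RPKM, the CPM value divided by the exon length in kilobases. The libraries held striatum markers at a summed 873 to 1922 CPM in Control and 193 to 219 CPM in EtOH mice. The part of striatal RNA in the order of genes was not tested. In Control mice the order ran from Pde1b at 62.9 ± 12.8 RPKM (SD, n = 7) over Pde1a at 28.3 ± 2.15, Pde10a at 26.1 ± 5.10 and Pde4a at 24.6 ± 1.19 RPKM. Pde4b at 10.9 ± 0.632 and Pde8b at 10.5 ± 0.717 RPKM followed, then Pde7b, Pde4d, Pde1c and, last, Pde2a at 0.223 ± 0.077 RPKM. The level of Pde2a, and so its place in the order, is uncertain. Ranges over mice overlapped between Pde1a and Pde10a, between Pde10a and Pde4a and between Pde4b and Pde8b, so the order of these neighbours does not go beyond their spread.

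In EtOH mice Pde1a led with 33.3 ± 0.679 RPKM (SD, n = 5), above Pde1b at 24.3 ± 0.879 and Pde4a at 20.2 ± 0.982 RPKM. Pde10a stood in the sixth place with 6.32 ± 0.926 RPKM, below Pde8b and Pde4b. The ranges of Pde8b and Pde4b overlapped, as did those of Pde1c and Pde2a at the bottom of the order.

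Summed over the 10 genes, the level was 172 ± 18.6 RPKM in Control (139.6 to 191, n = 7) and 109 ± 0.884 RPKM in EtOH mice (107 to 109, n = 5). The EtOH sums were all below the Control sums. Pde1b made up 36.2% of the Control sum and 22.3% of the EtOH sum on the RPKM scale, Pde10a 15.1% and 5.81%, and Pde1a 16.6% and 30.6%. These shares are descriptions and move with the length used for a gene. A share also moves when other members change, and Pde1a itself had 28.3 RPKM in Control and 33.3 RPKM in EtOH mice. With the longest transcript in place of all exons, Pde4a stood above Pde10a in Control mice.

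**Figure D3:**
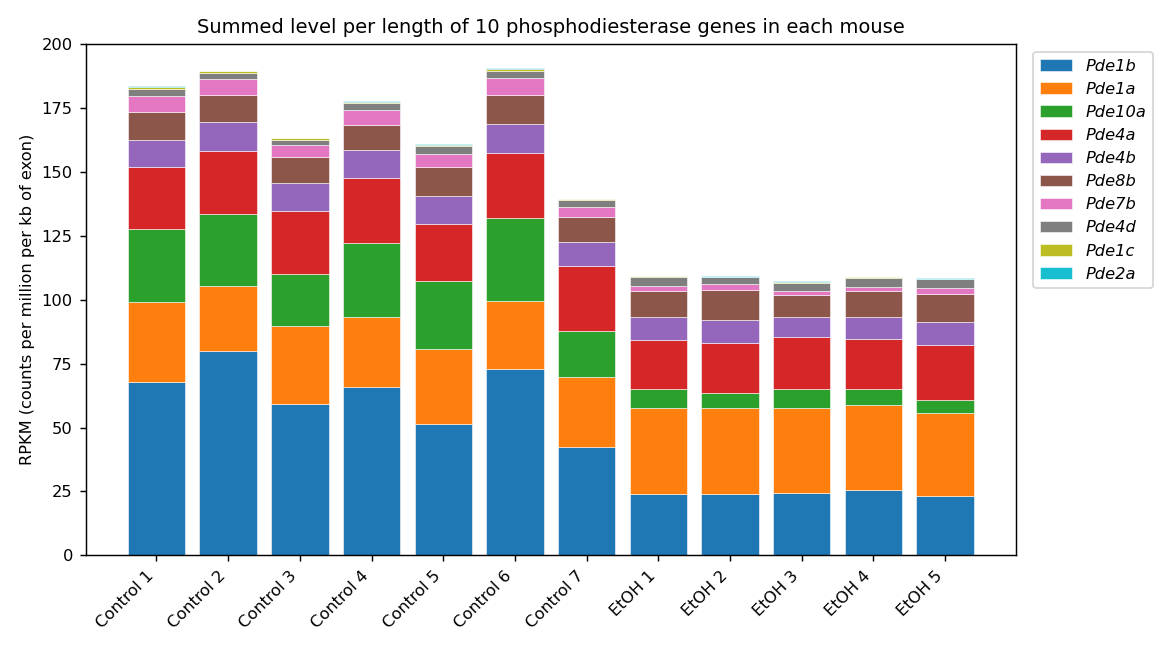
Level in RPKM of the 10 members, stacked for each of 7 Control and 5 EtOH mice (1 bar per mouse, 1 colour per gene). The EtOH stacks are 107 to 109 RPKM high and the Control stacks 139.6 to 191, with thinner Pde1b and Pde10a layers in EtOH mice.

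The members also differed in their spread over Control mice. The coefficient of variation of CPM values was 21.1% for Pde1c, 20.4% for Pde1b, 19.5% for Pde10a and 17.7% for Pde7b, the 4 members called lower. Among the 6 others it was 34.5% for Pde2a, 15.7% for Pde4d, 4.86% for Pde4a, 5.82% for Pde4b, 6.86% for Pde8b and 7.61% for Pde1a. Pde2a, whose level is uncertain, thus lay above all of the 4 called members, and every other uncalled member lay below them. In EtOH mice the coefficient was 3.62% for Pde1b, 14.7% for Pde10a, 15.2% for Pde1c and 15.4% for Pde7b.

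The relation of each member with the mean log2 CPM of the striatum and hippocampus markers was computed over the 7 Control mice alone, 20 relations in all, with exact two-sided permutation tests over all pairings. The 7 libraries are too few for more than large correlations, and members and markers share each library's depth. Of the 20 relations, 3 had an adjusted p under 0.05.

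For Pde1b and the striatum markers, Pearson's r was 0.99 (exact permutation p = 0.000397, adjusted p = 0.00794) and Spearman's rho was 0.96 (exact permutation p = 0.00278, adjusted p = 0.0556). Without the 2 mice farthest from the median marker level r was 0.96. For Pde7b, r was 0.93 (exact permutation p = 0.00317, adjusted p = 0.0317), rho was 0.93 (exact permutation p = 0.00675, adjusted p = 0.0675) and r without the 2 mice was 0.77. Pde8b ran with the hippocampus markers, with r = 0.85 (exact permutation p = 0.00655, adjusted p = 0.0437), rho = 0.89 (exact permutation p = 0.0123, adjusted p = 0.0820) and r = 0.75 without 2 mice. With relative log expression factors in place of TMM the r of Pde8b was 0.85 with an exact permutation adjusted p of 0.0542, which misses the threshold.

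Relations with the striatum markers that missed the adjusted threshold were r = 0.87 for Pde4b (exact permutation adjusted p = 0.105), 0.84 for Pde1c and 0.80 for Pde10a (both with an exact permutation adjusted p of 0.112). Without the 2 mice farthest from the median, r was 0.79, 0.54 and 0.64. Pde4a had r = -0.82 with the hippocampus markers (exact permutation p = 0.0484, adjusted p = 0.138), and without the 2 mice r was 0.0065. For Pde1a, Pde2a, Pde4a, Pde4d and Pde8b r with the striatum markers was between -0.23 and 0.30. These values were not stable, since r of Pde1a was -0.81 without the 2 mice farthest from the median, and over the fits without 1 mouse or with other scaling factors r ran from -0.69 to 0.12 for Pde1a, -0.69 to 0.32 for Pde2a, -0.43 to 0.65 for Pde4a, -0.30 to 0.01 for Pde4d and -0.33 to 0.60 for Pde8b. The count of 3 was 0 without Control 2, Control 3, Control 5 or Control 7, and 1 without Control 4. With 1 mouse left out it was 4 at the highest. All these fits hold 6 mice, with fewer pairings and so a coarser exact p, and the cause of the changes was not tested. Over the 7 fits without 1 mouse and that with the other factors, r was 0.98 to 0.99 for Pde1b, 0.87 to 0.96 for Pde7b and 0.82 to 0.95 for Pde8b with the hippocampus markers. The relations that missed the threshold moved more over the same fits, with r from 0.43 to 0.92 for Pde1c, 0.49 to 0.87 for Pde10a and 0.52 to 0.97 for Pde4b with the striatum markers.

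**Figure D4:**
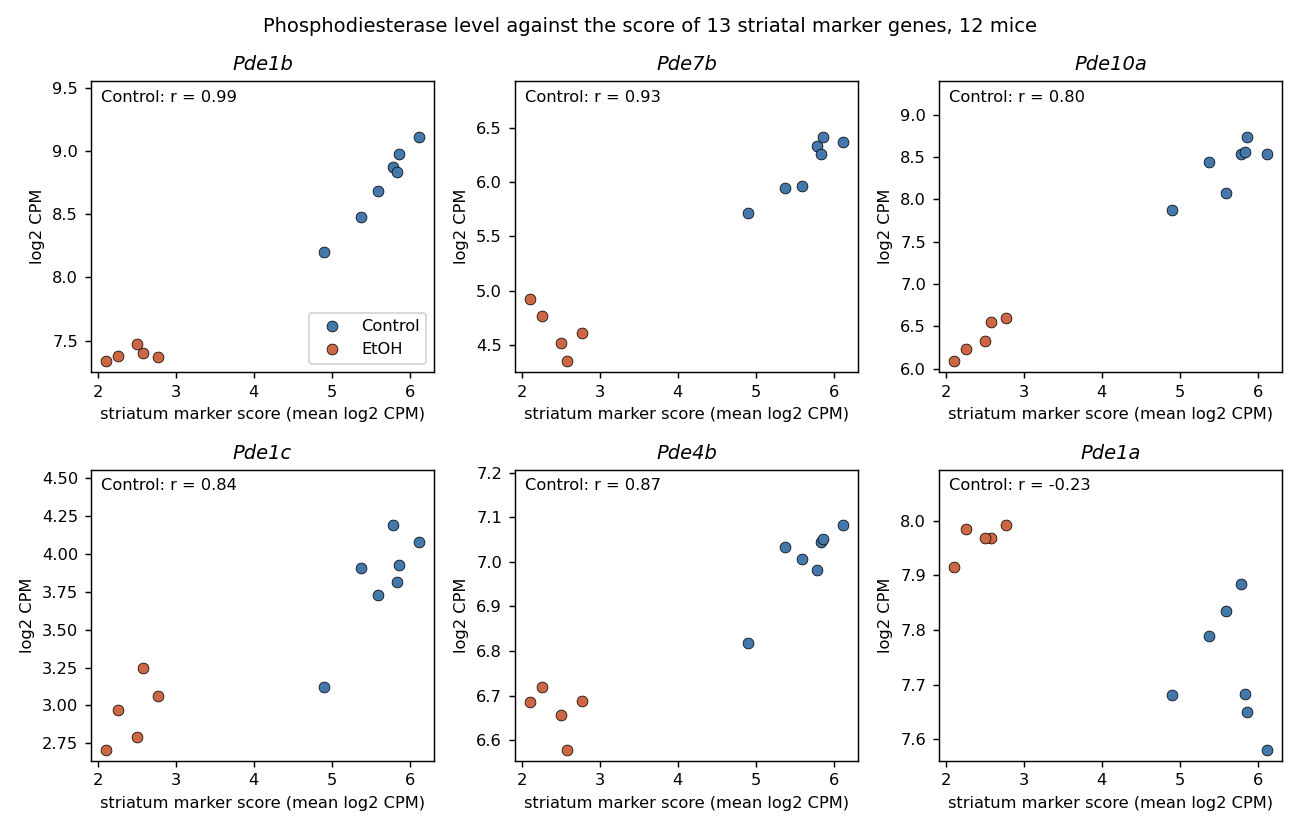
Log2 CPM of 6 members against the mean log2 CPM of 13 striatum markers, 1 point per mouse, with Control in blue and EtOH in orange and r over Control mice printed in each panel. Control mice lie at 4.90 to 6.11 on the marker axis and EtOH mice form a separate group at 2.11 to 2.77, and among Control mice Pde1b and Pde7b are higher where the markers are higher.

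Among the 45 pairs of members over the same 7 Control mice, 10 had an unadjusted exact permutation p under 0.05 and 2 had an adjusted p under 0.05. Pde1b and Pde7b had r = 0.95 (exact permutation adjusted p = 0.0491), rho = 0.96 (exact permutation adjusted p = 0.125) and r = 0.85 without the 2 mice farthest from the median. Pde7b and Pde10a had r = 0.90 (exact permutation adjusted p = 0.0491), rho = 0.86 (exact permutation adjusted p = 0.331) and r = 0.96 without the 2 mice.

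Over all 12 mice, with group means taken off, the 3 genes most correlated with each member in log2 CPM were taken as a description. Members and these genes share each library, and an r picked as the highest over all genes tested is high in part through the picking. Pde1b varied most like Slc32a1 (r = 0.96), the vesicular transporter of GABA, Ppp1r1b (0.95), which encodes DARPP-32 of medium spiny neurons, and Rgs9 (0.94), a striatal regulator of G-protein signals. Ppp1r1b and Rgs9 were themselves among the striatum markers. Pde7b varied most like Grm4 (0.92), Foxp2 (0.92) and Acy1 (0.89), and Pde10a most like Plppr4 (0.96), Pde3a (0.94) and Hs6st2 (0.93). Pde1c varied most like Stk32a (0.94), Ntn1 (0.92) and Thg1l (0.92), and Pde1a most like Sulf2 (0.87), Mylk4 (0.85) and Theg (0.85). Pde4d had Ago2 (0.99), Pdxk (0.97) and Tnrc18 (0.95), and Pde2a had Cul4b (0.98), Igf2r (0.97) and Srr (0.97). Pde4b had Sun2 (0.92), Stat5a (0.91) and 1700110C19Rik (0.91), Pde4a had Snora31 (0.91), Prr14 (0.88) and Prrx2 (0.88), and Pde8b had Panct2 (0.91), Gm12183 (0.90) and Gm5421 (0.90).

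Of the 14 other listed genes with phosphodiesterase names 10 were tested, and Pde6a, Pde6b, Pde6c and Pde6h, of the photoreceptor enzymes, were too low. Pde11a, a dual-specificity enzyme known in the brain mainly from the hippocampus, was the 1 gene called higher. Its Control levels were 1.88, 2.02 and 3.03 CPM at the lowest, median and highest, and the EtOH mice were at 6.24, 4.14, 9.60, 7.19 and 6.60 CPM. Groups did not overlap, and the log2 fold change was 1.56 (SE 0.18, adjusted p = 9.51e-06 by edgeR's quasi-likelihood test).

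None of these 10 was called lower by edgeR, DESeq2 or limma voom, and 1 was lower at an unadjusted p under 0.05 in edgeR's test. Their median log2 fold change was 0.16. Pde7a, the paralogue of Pde7b, had a log2 fold change of 0.19 (adjusted p = 0.0348) and Pde9a, the cGMP-specific enzyme, of 0.21 (adjusted p = 0.0469), both in edgeR's quasi-likelihood test and under the fold minimum. The other log2 fold changes, of Pde3a, Pde3b, Pde4c, Pde5a, Pde6d, Pde6g and Pde8a, were between -0.17 and 0.27 with no adjusted p under 0.05.

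Among the 10 adenylyl cyclases, which make cAMP, 1 was called lower and 3 higher. Adcy5, the main cyclase of the striatum, had Control levels of 309, 488 and 556 CPM at the lowest, median and highest, and EtOH levels of 182, 144, 186, 194 and 171 CPM. The groups did not overlap, and Adcy5 fell by 1.41 on the log2 scale (adjusted p = 1.84e-07 by edgeR's quasi-likelihood test). Adcy8 and Adcy1, both stimulated by calcium and calmodulin, rose, Adcy8 by 1.14 (adjusted p = 1.46e-09) and Adcy1 by 0.65 (adjusted p = 0.000710) in the same edgeR test. Adcy8 went from 20.5 ± 1.5 CPM (SD, n = 7) to 45.1 ± 2.19 CPM (SD, n = 5), and Adcy1 from 766 ± 143 to 1199 ± 165 CPM. Adcy10, the bicarbonate-sensitive cyclase, rose by 1.15 (adjusted p = 0.00117, same edgeR test), from 0.664 to 1.48 CPM.

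Of 11 guanylyl cyclase genes 9 were tested and only Gucy2f was called, higher at 1.23 against 0.707 CPM (adjusted p = 0.0363 by edgeR's quasi-likelihood test). Gucy2f was not called without Control 1, 2, 4 or 6 or without EtOH 1, 3 or 4, where edgeR's adjusted p was 0.0540 to 0.118, nor without the deepest library of each group. Of 26 effector genes 22 were tested. Popdc3, a cAMP-binding membrane protein, was higher by 2.34 on the log2 scale at 2.05 against 0.401 CPM (adjusted p = 0.000136 by edgeR's quasi-likelihood test). Hcn4, a cyclic nucleotide-gated pacemaker channel, fell by 0.63 (adjusted p = 0.0217 by edgeR's quasi-likelihood test), at 6.25 against 9.71 CPM. Hcn4 was not called without EtOH 2 or without EtOH 5. Prkar2b and Prkar1b encode regulatory subunits of protein kinase A. Prkar2b had a log2 fold change of -0.49 (adjusted p = 3.01e-05 by edgeR's quasi-likelihood test), just under the fold minimum, and Prkar1b of -0.35 (adjusted p = 0.000175, same test).

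None of the 16 regulators and anchors, calmodulin genes and A-kinase anchors among them, was called by edgeR, DESeq2 or limma voom. At an unadjusted p under 0.05 in edgeR's test 7 were lower and 1 was higher. At an adjusted p under 0.05 5 were lower and 0 higher, all under the fold minimum. Median log2 fold changes were 0.27 for the adenylyl cyclases, 0.15 for the guanylyl cyclases, -0.02 for the effectors and -0.06 for the regulators and anchors.

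**Figure D5:**
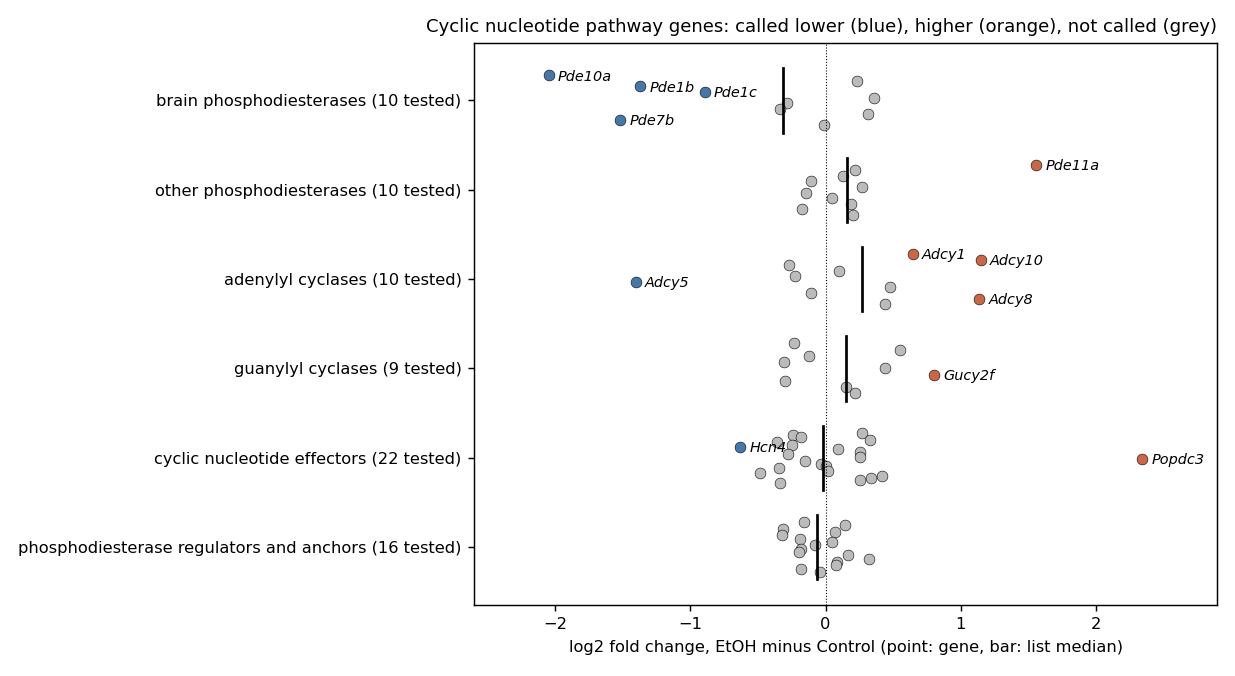
Log2 fold change (EtOH minus Control) of every tested gene in the 10 members and 5 further lists; each point is 1 gene, blue if called lower, orange if called higher and grey if not called, and the black bar is the median of a list. Pde10a, Pde7b, Pde1b and Adcy5 lie below -1, and Pde11a, Adcy8, Adcy10 and Popdc3 lie above 1.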

How the data were processed

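RNA of 12 mouse cortex samples was extracted and sequenced by BGI on DNBSEQ. The authors checked reads with FastQC 0.11.9, aligned them with STAR to GRCm39 (Gencode release 28) and counted them with featureCounts. They deposited 1 table of expected counts per gene symbol, without normalization, in which 61 symbols hold values that are not whole. Strand and multi-mapping settings are not given in the sources used here. Columns were matched to mice by name, and 0 were left unmatched.

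Counts were rounded, filtered with filterByExpr, scaled with TMM and compared with edgeR's quasi-likelihood test over all genes (R 4.3.3, edgeR 4.0.16), and p-values were adjusted by the Benjamini-Hochberg method. DESeq2 (1.42.0), the tool of the study, whose thresholds were kept, and limma voom (3.58.1) were run as alternatives. The standard error is the log2 fold change divided by the square root of F. Log2 CPM values used a prior count of 2, and the test was tested on simulated counts. RPKM used exon length from Gencode release 39. Named genes are all members, the other listed genes with phosphodiesterase names, called genes of each list and the genes most correlated with a member. Prkar2b and Prkar1b were named after their values were seen. Members and lists were chosen with earlier results of these data known. SDs measure the spread between these mice. Standard errors and p-values of edgeR's test are built on that spread, and exact permutation p-values on the pairings of mice. The CPM value of 3 counts covers counting error only. Replicate numbers did not pair mice across groups. Sequence before gene starts is not reported here.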

Additional observations from a re-analysis of the deposited data

Results flagged for a closer look

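In 46 comparisons of single mice with the rest of their group, 4 values on 3 mice stood apart from the others by Dixon's test, where chance gives about 2.3 such values. Pde4a was lowest in Control 5, at a log2 CPM of 7.56 with the next mouse at 7.70. Pde4b was lowest in Control 7, at a log2 CPM of 6.82 with the next mouse at 6.98. The total count was highest in Control 5 (40690226, next 32356909) and in EtOH 1 (42183031, next 33313165). Control 5 thus stood apart both in depth and in Pde4a, and it was also the mouse with the most Pde2a. The part of depth in these values was not tested.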

How the results depend on the processing

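Of 220 recomputed fold changes of members, 214 kept their side of the threshold and 6 did not, and none changed direction past it. With no fold minimum Pde4a, Pde4b, Pde1a and Pde4d were called, which gave 6 lower and 2 higher in place of 4 and 0, and with a log2 fold change minimum of 1 Pde1c was not called, which gave 3 lower. Leaving out 1 mouse gave 0 to 1 members called higher, the 1 being Pde2a without Control 5, and the cause was not tested. Of 77 pathway genes listed, not all of which were tested, 2 were called lower and 6 higher in the test reported. Over all genes tested the shares were 4.09% and 4.2%. With 1 mouse left out, those called lower ranged from 1 to 3 (1 without EtOH 2 or EtOH 5). Those called higher ranged from 5 to 9 (9 without Control 5, with adenylyl cyclases at 5 in place of 3). Relations with marker levels past an adjusted p of 0.05 ranged from 0 to 4 with 1 mouse left out, and were 2 with relative log expression factors. Guanylyl cyclases called higher, 1 in the test reported, ranged from 0 to 2 when 1 mouse was left out. Without the deepest library of each group, chosen after seeing the data, members called lower numbered 4.

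Same-numbered mice of the groups had correlated deviations of -0.108 to 0.018, and 0 of 5 EtOH mice correlated best with their own number, so the numbers were not treated as pairs. With the replicate number as a block, members called lower were 4 and higher 0, and pathway genes called lower were 3 and higher 8, with adenylyl cyclases called higher at 5 in place of 3 and effectors called lower at 2 in place of 1. Low counts limited mainly Pde2a, whose level is also uncertain through exon overlap and counts that were not whole.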
